A study of Mus musculus with 20 samples.

Results

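The 10 genes described here make and load the peptides of major histocompatibility complex (MHC) class I molecules: B2m, Tap1, Tap2, Tapbp, Psmb8, Psmb9, Psmb10, Psme1, Psme2 and Nlrc5. They were found by symbol among the 37620 Ensembl genes of the count table, where Psmb9 has 2 identifiers and each other gene has 1. Gene counts were measured by RNA-seq of bulk bone marrow from 20 mice in 4 groups of 5, namely vehicle- or sudemycin D6-treated mice with U2AF1(WT) marrow and vehicle- or sudemycin D6-treated mice with U2AF1(S34F) marrow. U2AF1(S34F) is a recurrent mutation of a splicing factor that recognizes the 3′ end of introns, and sudemycin D6 is a small molecule that binds the SF3B1 part of the spliceosome. All mice were lethally irradiated wild-type (C57BL/6 × 129S4Sv/Jae)F1 recipients of pooled marrow from transgenic donors, so any radioresistant host cells in the sample are wild type. All 4 groups ate doxycycline chow (625 ppm) for 7 days to switch on the U2AF1 transgene, wild type or S34F. Infusions of sudemycin D6 (50 mg per kg per day, 4 h each) or of its cyclodextrin vehicle filled the last 5 of these days. Donors were at least 8 weeks and at most 12 weeks old, and recipients at least 6 weeks and at most 12 weeks old.

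Class I molecules present peptides from inside the cell to CD8 T cells. Peptides are cut by proteasomes, in which the interferon-induced subunits encoded by Psmb8, Psmb9 and Psmb10 can replace the constitutive subunits encoded by Psmb5, Psmb6 and Psmb7, and to which the activator encoded by Psme1 and Psme2 can bind. The transporter encoded by Tap1 and Tap2 moves the peptides into the endoplasmic reticulum, where tapasin (Tapbp) helps to load them onto a heavy chain paired with beta-2-microglobulin (B2m). NLRC5 is the transactivator of many of these genes and acts through factors bound to a composite promoter element with a cyclic AMP response element-like box and a CCAAT box. Interferons raise the pathway through IRF1 and NLRC5, among others.

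The promoter sequences show how close together such elements can lie. Of the 10 genes, 8 had a window from 250 bases before to 50 bases after the start site in the RefSeq sequences of build GRCm38.p6, and Nlrc5 and Tap2 were not matched. The bases before the start of B2m, and those before Tap1, which share 275 bases of window with Psmb9 on the opposite strand, are given 5′ to 3′ on the plus strand. Capitals mark, on either strand, the interferon-stimulated response element (ISRE), TGACG (the core of a cyclic AMP response element) and the CCAAT box (searched as ATTGG).
B2m (chr2:122147437-122147686): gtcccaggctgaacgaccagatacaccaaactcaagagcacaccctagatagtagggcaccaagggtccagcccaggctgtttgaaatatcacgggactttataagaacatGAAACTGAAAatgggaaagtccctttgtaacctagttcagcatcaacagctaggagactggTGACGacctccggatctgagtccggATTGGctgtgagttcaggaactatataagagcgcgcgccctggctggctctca
Tap1 (chr17:34187306-34187555): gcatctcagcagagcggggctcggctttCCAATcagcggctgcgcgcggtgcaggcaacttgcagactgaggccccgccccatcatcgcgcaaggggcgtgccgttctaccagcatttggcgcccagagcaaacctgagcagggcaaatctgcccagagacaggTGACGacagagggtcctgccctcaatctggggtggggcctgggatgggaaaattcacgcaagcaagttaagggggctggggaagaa
The B2m sequence held all 3 boxes, in the order ISRE, TGACG and CCAAT box. The Tap1 sequence held a CCAAT box and TGACG, and the Psmb9 window held the same boxes. The ISRE was found in the windows of B2m and Psme1, 2 of the 8 genes, and in 3.44% of all 32851 promoter windows of the same length. TGACG was found for 4 of the 8 genes (B2m, Psmb9, Psme2 and Tap1) against 20.8% of all windows, and ATTGG for 4 (B2m, Psmb9, Tap1 and Tapbp) against 37.4%. An NF-kB-like site was found for 5 genes (B2m, Psmb9, Psme1, Psme2 and Tap1) against 50.8%. These matches are descriptions of letters, and no binding was measured.

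Counts summed to between 41145892 and 62138138 per mouse. As checks of the labels, reads counted on the mouse gene U2af1 ran from 34.8 to 48.3 CPM (read counts scaled to a common library size) in the 10 U2AF1(WT) mice and from 46.4 to 58.0 CPM in the 10 U2AF1(S34F) mice, and whether they include reads of the transgene was not tested. Xist ran from 879 to 1593 CPM in the U2AF1(WT) mice and reached at most 0.145 CPM in the U2AF1(S34F) mice, whereas Ddx3y was at 0 reads in the former and at 39.3 to 76.0 CPM in the latter. Eif2s3y and Kdm5d were likewise at 0 reads in the U2AF1(WT) mice and at no less than 76.8 and 36.5 CPM in the others, and Uty was at no more than 4 reads against at least 24.5 CPM. The genotypes therefore also differed in sex-linked transcripts, and the mutation and sex cannot be told apart in any comparison between them. Recipients of a genotype can also share a pool of donors, and the labels do not name the pool of a mouse. The mutation and the donor pool can therefore not be told apart either, and the p-values reflect the spread among recipients, not among donors. The defining markers of marrow were present, S100a9 and S100a8 of neutrophils at means of 30528 and 18709 CPM, F13a1 and Ly6c2 of monocytes at 669 and 580.4 CPM, and Hbb-b1 and Hba-a1 of erythroid cells at 270.0 and 90.7 CPM.

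In the files' coordinates (NCBI build 37, GENCODE M1 genes) 5 of the genes lie in the MHC region of chromosome 17. These are Tapbp (ENSMUSG00000024308, chr17:34052844-34066235, plus strand), Psmb9 (ENSMUSG00000024337, chr17:34318932-34324697, minus strand), Tap1 (ENSMUSG00000037321, chr17:34324498-34334170, plus strand), Psmb8 (ENSMUSG00000024338, chr17:34334666-34338399, plus strand) and Tap2 (ENSMUSG00000024339, chr17:34340472-34353266, plus strand). B2m (ENSMUSG00000060802) lies at chr2:121973422-121978819 on the plus strand. Psme1 (ENSMUSG00000022216, chr14:56196960-56200366, plus strand) and Psme2 (ENSMUSG00000079197, chr14:56206278-56209950, minus strand) are near neighbours. Nlrc5 (ENSMUSG00000074151, chr8:96996663-97051172, plus strand) is entered as a lincRNA in that annotation, and Psmb10 (ENSMUSG00000031897) lies at chr8:108459628-108462292 on the minus strand.

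Psmb9 could not be read from the gene counts. Both of its identifiers cover nearly the same exons on the same strand (99.67% and 99.97% of their exon bases shared), and each held between 0 and 3 reads in every mouse. The splice junctions of Psmb9, counted separately by the authors, carried between 1649 and 4678 reads per mouse. Psmb9 was therefore described from junction reads, summed per gene and scaled to CPM of junction reads, and the other 9 genes from gene counts, with their junction sums beside them. Psme2 has a processed copy, Psme2b-ps, at a median of 447 reads, with which reads could be shared, and Tap2 and Psmb8 overlap other annotated transcripts on the opposite strand over 18.5% and 6.83% of their exon bases.

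There were 2 mice that stood apart. Nlrc5, the transactivator, was at 42.1, 49.1, 45.9, 43.3 and 42.3 CPM in vehicle-treated U2AF1(WT) mice 1 to 5. In sudemycin-treated U2AF1(WT) mice it was at 38.0, 134, 33.2, 38.8 and 35.4 CPM (mice 6, 8, 9, 10 and 12). The vehicle-treated U2AF1(S34F) mice 1, 3, 5, 7 and 11 had 35.5, 40.6, 87.8, 53.6 and 40.1 CPM. Mouse 8 of the first of these treated groups and mouse 5 of the second thus lay far above their groups, whereas the sudemycin-treated U2AF1(S34F) mice lay close together at 33.1, 40.9, 35.9, 34.9 and 33.3 CPM (mice 2, 6, 9, 10 and 12). In mouse 8, 9 of the 10 genes were above the median of its group, all but B2m, by a median of 0.75 on the log2 scale, and in mouse 5 all 10 were, by a median of 0.37. All 13 interferon-induced genes from outside the pathway were above the group median in both mice, by a median of 2.01 in mouse 8 and 1.02 in mouse 5. Their summed level was 538 CPM in mouse 8 against 112 to 138 CPM in its group, and 494 CPM in mouse 5 against 199 to 292 CPM. Results that rest on these mice are given with and without them.

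**Figure D1:**
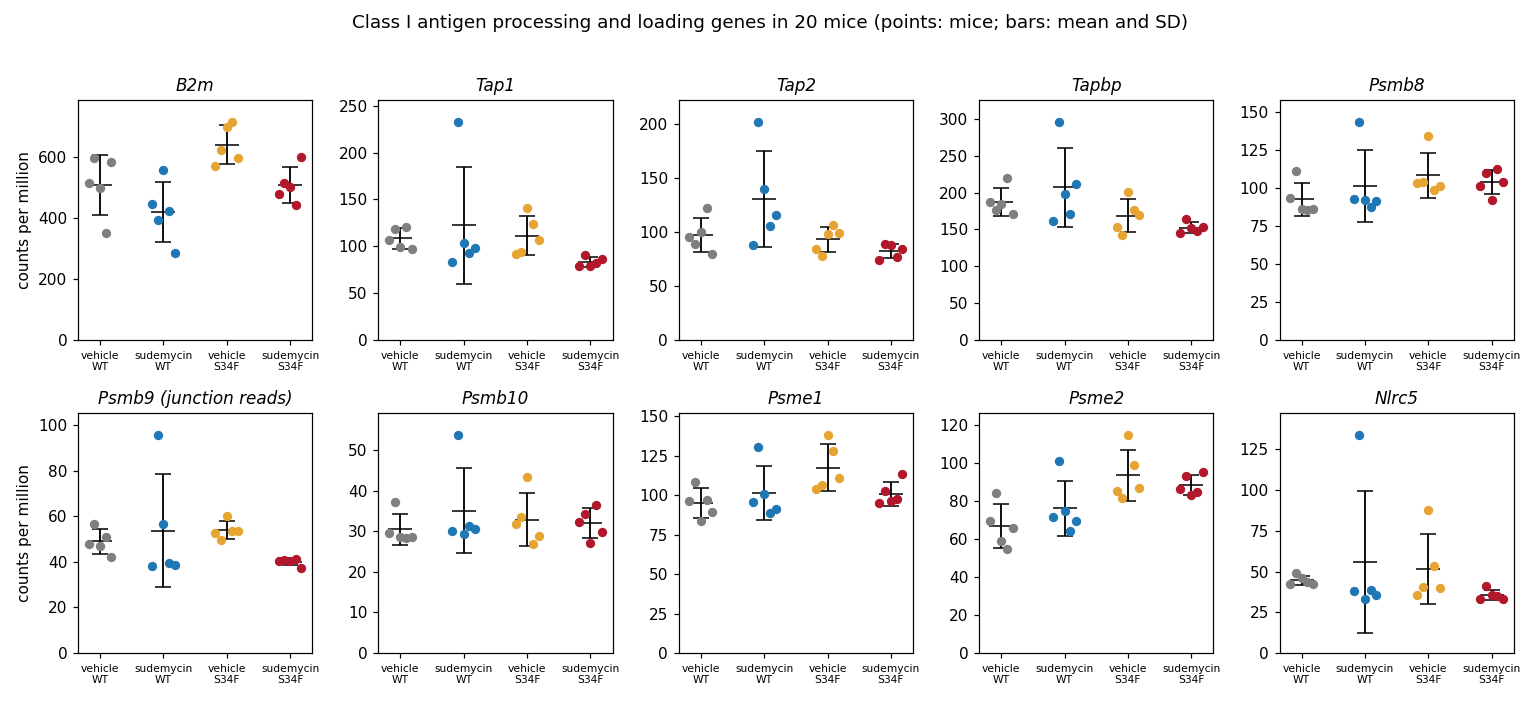
Level of each of the 10 genes in every mouse, in CPM of gene reads (of junction reads for Psmb9), by group. Points are mice, and bars give the mean and SD of 5 mice. A single sudemycin-treated U2AF1(WT) mouse (mouse 8) lies above the others for most genes, with Nlrc5 at 134 CPM, while B2m does not show it.

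Per length of transcript, B2m was by far the highest of the genes. In vehicle-treated U2AF1(WT) mice it stood at 590.4 ± 114 RPKM (CPM per kilobase of merged exons, SD, n = 5 here and in the following). Tapbp followed at 57.0 ± 5.76 RPKM, then Psme1 at 42.9 ± 4.25, Psme2 at 37.8 ± 6.51, Psmb8 at 33.7 ± 3.94, Tap2 at 25.8 ± 4.19, Psmb10 at 24.0 ± 3.001, Tap1 at 19.8 ± 2.00 and Nlrc5 at 6.10 ± 0.40 RPKM. B2m, Tapbp and Nlrc5 did not overlap their neighbours in this order over the 5 mice. The ranges of Psme1 and Psme2, of Psme2 and Psmb8, of Psmb8 and Tap2 and of Tap2 and Psmb10 overlapped. As all genes were read in the same mice, overlap does not show that neighbours were equal. Psme1 was above Psme2 in each of the 5 mice, with ratios from 1.02 to 1.41. Psmb10 and Tap1 were separated narrowly, with a lowest Psmb10 value of 22.3 RPKM and a highest Tap1 value of 22.1 RPKM. The order depended on the measure. Main junctions are annotated ones with at least 10% of the reads of the gene's highest. In CPM per main junction of the same mice, Tapbp (15.0 ± 1.42) lay below Psme1 (25.8 ± 1.79), Psme2 (22.6 ± 3.82) and Psmb8 (19.9 ± 2.65), without overlap. Tap1 (9.49 ± 0.94) then had a higher mean than Psmb10 (7.66 ± 0.85). The group mean of B2m ran from 488 RPKM in sudemycin-treated U2AF1(WT) mice to 743 RPKM in vehicle-treated U2AF1(S34F) mice. Heavy chains H2-D1 and H2-K1, the partners of B2m, stood at 482 ± 50.5 and 179 ± 8.997 RPKM in vehicle-treated U2AF1(WT) mice.

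In U2AF1(S34F) marrow, Tap1, B2m and Psmb9 were lower under sudemycin D6. Tap1, a subunit of the peptide transporter, was at 91.3, 93.6, 141, 123 and 107 CPM in vehicle-treated U2AF1(S34F) mice. It was at 78.8, 90.3, 78.7, 81.7 and 86.1 CPM in sudemycin-treated ones. Every treated mouse was below every vehicle mouse, and Tap1 fell by 0.42 ± 0.11 (SE) on the log2 scale (edgeR adjusted p = 0.0471). B2m was at 568, 621, 696, 714 and 596 CPM under vehicle. Under sudemycin D6 it was at 477, 515, 499, 442 and 600.2 CPM. One treated mouse overlapped the vehicle mice, and B2m fell by 0.34 ± 0.09 (edgeR adjusted p = 0.0562). Thus 2 of the 9 genes with gene counts were called, both lower, at a false discovery rate (FDR) below 10%, where 10.8% of all 14714 genes tested were called. The groups were apart in CPM for 1 of the 9 genes, Tap1, and for 7.8% of all genes.

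Psmb9, which encodes an inducible catalytic subunit and starts next to Tap1, also fell. Its junction reads stood at 52.8, 49.8, 60.2, 53.7 and 53.4 CPM in vehicle-treated U2AF1(S34F) mice. They stood at 40.2, 40.99, 40.3, 41.4 and 37.3 CPM in sudemycin-treated ones. The 2 groups were apart, and Psmb9 fell by 0.43 ± 0.06 on the log2 scale (edgeR adjusted p = 0.0041 over all genes with junction reads). On junction reads 4 of the 10 genes were called, all lower (B2m, Psmb9, Psme1 and Tap1), against 7.27% of all 12413 genes tested. Psme1, an activator subunit, had a log2 change of -0.23 on junction reads (edgeR adjusted p = 0.0975) and -0.22 on gene counts (adjusted p = 0.161). Nlrc5 had the largest fitted change of the 9 genes with gene counts, -0.54 ± 0.22, and was not called (adjusted p = 0.188 by edgeR, 0.0784 by DESeq2).

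The other 5 genes were not called in this comparison. Tap2 and Tapbp had log2 changes of -0.18 and -0.15, and Psmb8, Psmb10 and Psme2 of -0.06, -0.04 and -0.08. All 9 estimates from gene counts were negative, with a median of -0.18 against -0.01 over all genes. Without vehicle-treated U2AF1(S34F) mouse 5 the change of Tap1 was -0.32 (edgeR adjusted p = 0.0607), that of B2m -0.30 (0.0966) and that of Psmb9 -0.39 (0.0065), so these calls held, while the estimate for Nlrc5 was -0.25 (0.198). In the fit of all 20 mice together, which takes its spread from every group, neither Tap1 nor B2m was called (edgeR adjusted p = 0.323 and 0.260). Leaving out sudemycin-treated U2AF1(S34F) mouse 2 ended both calls, and leaving out mouse 9 or mouse 10 of that group ended the call of B2m.

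In U2AF1(WT) marrow no gene of the pathway was called under sudemycin D6. B2m was at 514, 595, 498, 349 and 582 CPM in the vehicle-treated mice and at 444, 391, 556, 423 and 284 CPM in the sudemycin-treated ones, and the groups overlapped. Its log2 change of -0.30 ± 0.18 stood beside -0.34 in U2AF1(S34F) mice and was not called (edgeR adjusted p = 0.505). None of the 9 genes was called, and none had an unadjusted p below 0.05, by edgeR, and DESeq2 called 0 as well, where edgeR called 3.07% of 14763 genes. No gene's groups were apart, against 4.15% of all genes, and on junction reads 0 of the 10 genes were called against 1.13% of all genes. The other 8 estimates from gene counts were positive, from 0.07 for Psme1 to 0.40 for Tap2 (edgeR adjusted p = 0.847 and 0.396). Most of those estimates rested on mouse 8. Without it, 7 of the 10 genes changed sign, Psmb9 on junction reads among them. Nlrc5 went from 0.30 to -0.31 (edgeR adjusted p = 0.153) and Tap1 from 0.15 to -0.22 (0.469). Tap2 and Psme2 stayed positive, at 0.19 and 0.05, and 0 of the 9 genes with gene counts were called.

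**Figure D2:**
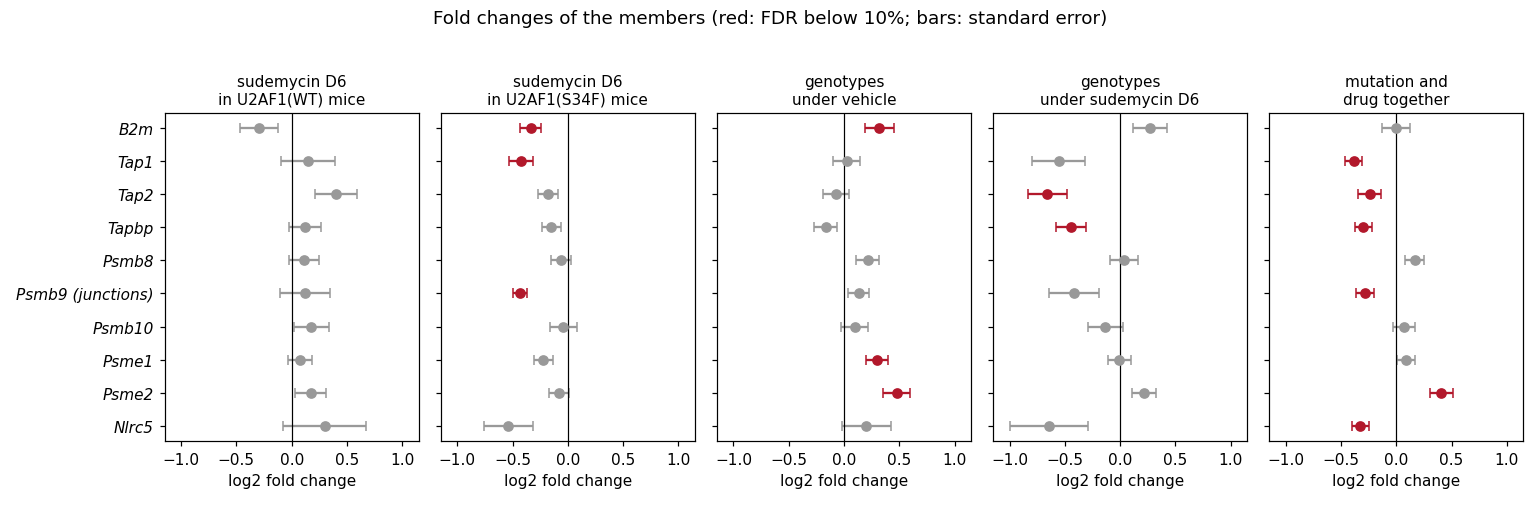
Log2 fold change of each gene in each comparison, with its standard error from edgeR, on gene counts (on junction reads for Psmb9). Red points passed an FDR below 10%. Tap1, Psmb9 and B2m were called lower under sudemycin D6 in U2AF1(S34F) mice, and no gene was called in U2AF1(WT) mice.

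Whether the drug acted differently in the 2 genotypes was tested by the interaction of genotype and drug over the 20 mice. None of the 9 genes was called by edgeR or by DESeq2, and edgeR called 2 of 15392 genes (0.013%). Of the 9, 2 had an unadjusted p below 0.05, Tap2 and Psme1, with interaction terms of -0.60 ± 0.23 and -0.31 ± 0.15 (edgeR adjusted p = 0.535 and 0.653). The term for Psmb9 on junction reads was -0.56 ± 0.26 (edgeR adjusted p = 0.778). All 9 terms were negative, with a median of -0.29 against -0.03 over all genes. Without both mice that stood apart the terms were smaller in size for Tap1 (-0.09), Tapbp (-0.03), Tap2 (-0.33), Psme1 (-0.11), Psme2 (-0.03), B2m (-0.02) and, on junction reads, Psmb9 (-0.21), and positive for Nlrc5, Psmb8 and Psmb10. A difference in response between the genotypes was thus not shown for any of these genes.

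Between the genotypes under vehicle, the activator genes and B2m were higher in U2AF1(S34F) marrow. Psme2, which encodes the beta subunit of the activator, was at 69.5, 84.5, 59.0, 54.8 and 65.9 CPM in U2AF1(WT) mice 1 to 5. It was at 85.3, 81.7, 115, 99.1 and 86.7 CPM in U2AF1(S34F) mice. One U2AF1(WT) mouse overlapped the others, and Psme2 rose by 0.48 ± 0.13 on the log2 scale (edgeR adjusted p = 0.0123). Psme1, the alpha subunit, stood at 94.9 CPM on average in U2AF1(WT) and 117 CPM in U2AF1(S34F) mice and rose by 0.30 ± 0.10 (edgeR adjusted p = 0.0383). B2m rose by 0.32 ± 0.13 (edgeR adjusted p = 0.0786), with means of 508 and 639 CPM, and its groups overlapped. These 3 of 9 genes were called, all higher, where 39.5% of all 14817 genes were called, so the share among the members was near the background. The groups were apart for 0 of the 9 genes against 20.2% of all genes, and on junction reads 3 of 10 were called (Psme1, Psme2 and Psmb8) against 33.1%.

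Without vehicle-treated U2AF1(S34F) mouse 5, Psme2 and Psme1 were still called higher (0.39 and 0.23, edgeR adjusted p = 0.0298 and 0.0982). Tapbp was then called lower (-0.24, adjusted p = 0.0977), and the call of B2m was lost (0.29, 0.153). The call of B2m was also lost on leaving out mouse 1, 3 or 4 of the U2AF1(WT) group or mouse 7 or 11 of the U2AF1(S34F) group. Tap1, Tap2 and Nlrc5 had log2 differences of 0.02, -0.07 and 0.20 between the genotypes under vehicle and were not called (edgeR adjusted p = 0.899, 0.674 and 0.527). Without mouse 5 the difference of Nlrc5 was -0.08.

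Under sudemycin D6, Tap2 and Tapbp were lower in U2AF1(S34F) than in U2AF1(WT) marrow. Tap2, the second subunit of the transporter, was at 88.1, 202, 140.1, 105 and 116 CPM in the U2AF1(WT) mice. It was at 74.1, 89.1, 88.2, 76.7 and 84.4 CPM in the U2AF1(S34F) mice. The groups overlapped only at their edge, and Tap2 was lower by a log2 difference of -0.66 ± 0.18 (edgeR adjusted p = 0.0171). Tapbp was at 161, 198, 171 and 212 CPM in U2AF1(WT) mice 6, 9, 10 and 12 and at 296 CPM in mouse 8. It was at 146, 164, 152, 148 and 154 CPM in the U2AF1(S34F) mice, with a log2 difference of -0.44 ± 0.14 (edgeR adjusted p = 0.0308). Tap1 stood at the threshold, with -0.56 ± 0.24 (edgeR adjusted p = 0.102, DESeq2 0.0662).

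These 2 of 9 genes compare with 36.8% of all 14677 genes called. The groups were apart for 0 of 9 against 19.7% of all genes, and on junction reads the same 2 of 10 were called against 31.6%. Without sudemycin-treated U2AF1(WT) mouse 8 the differences of Tap2 and Tapbp were -0.44 and -0.28 and still called (edgeR adjusted p = 0.0225 and 0.0448). Those of Tap1 and Nlrc5 shrank from -0.56 to -0.18 and from -0.65 to -0.03 (adjusted p = 0.119 and 0.854). Without that mouse Psme2 and Psmb8 were called higher, by 0.34 and 0.20 (adjusted p = 0.0085 and 0.0734), which made 4 called genes in place of 2.

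Mutation and drug together were compared as sudemycin-treated U2AF1(S34F) against vehicle-treated U2AF1(WT) mice, neither of which holds a mouse that stood apart. Tap1 was at 107, 119, 99.1, 121 and 97.2 CPM in the vehicle-treated U2AF1(WT) mice, all above the sudemycin-treated U2AF1(S34F) mice, and fell by 0.39 ± 0.08 on the log2 scale (edgeR adjusted p = 0.0019). Nlrc5 fell by 0.32 ± 0.08 (edgeR adjusted p = 0.0043), with a lowest value of 42.1 CPM in the one group and a highest of 40.9 CPM in the other. Tapbp was at 187, 177, 185, 220 and 171 CPM in the U2AF1(WT) mice, also apart from the other group, and fell by 0.30 ± 0.08 (edgeR adjusted p = 0.0071). Tap2 fell by 0.24 ± 0.10 (edgeR adjusted p = 0.0749) with groups that overlapped.

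Psmb9 also fell on junction reads, from 47.9, 56.8, 47.0, 51.0 and 42.2 CPM in the vehicle-treated U2AF1(WT) mice, by 0.28 ± 0.09 (edgeR adjusted p = 0.0190), and the groups were apart. Psme2 rose by 0.41 ± 0.10 (edgeR adjusted p = 0.0067), from a mean of 66.7 to 88.5 CPM. B2m had equal means, 508 and 507 CPM, with a log2 difference of -0.0033 ± 0.13. Psmb8, Psmb10 and Psme1 had log2 differences of 0.17, 0.07 and 0.09 and were not called (edgeR adjusted p = 0.134, 0.605 and 0.401). Psmb8 became called on leaving out vehicle-treated U2AF1(WT) mouse 2 or sudemycin-treated U2AF1(S34F) mouse 9. Of the 9 genes 5 were called, 4 lower and 1 higher, where 50.2% of all 14761 genes were called, and the groups were apart for 3 of the 9 against 24.2% of all genes. On junction reads 6 of 10 were called against 43.7%. The call of Tap2 was lost on leaving out any one of mice 1, 3 and 4 of the vehicle-treated U2AF1(WT) group or mice 2 and 10 of the other, and in the fit of all mice together the calls of Tap1, Tap2 and Nlrc5 were lost (edgeR adjusted p = 0.155, 0.264 and 0.472). The vehicle-treated U2AF1(WT) mice are the controls of 3 of these comparisons, which are therefore not independent.

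The ratios of paired subunits, given as descriptions without a test, followed these values. Per length, Psmb8 to its constitutive counterpart Psmb5 stood at 1.18 ± 0.11 in vehicle-treated U2AF1(WT), 1.05 ± 0.30 in sudemycin-treated U2AF1(WT), 0.98 ± 0.16 in vehicle-treated U2AF1(S34F) and 0.89 ± 0.10 in sudemycin-treated U2AF1(S34F) mice. Psmb10 to Psmb7 stood in the same order at 0.45 ± 0.02, 0.47 ± 0.12, 0.38 ± 0.07 and 0.34 ± 0.03. The size of these ratios depends on the lengths used. Taken on counts and not per length, the median over all mice was 2.86 for Psmb8 to Psmb5 and 0.43 for Psmb10 to Psmb7. Psmb9 to Psmb6, taken as reads per main junction, stood at 0.66 ± 0.12, 0.65 ± 0.30, 0.57 ± 0.08 and 0.39 ± 0.01. The sudemycin-treated U2AF1(S34F) mice lay below all the others in this last ratio, but only narrowly. Their highest value was 0.408, and the lowest of the sudemycin-treated U2AF1(WT) mice was 0.413. Mouse 8 had the highest value of all mice in all 3 ratios, at 1.57, 0.67 and 1.17. Psme1 to Psme2 lay between 0.88 and 1.41 in every mouse, and Tap1 to Tap2 between 0.51 and 0.99.

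**Figure D3:**
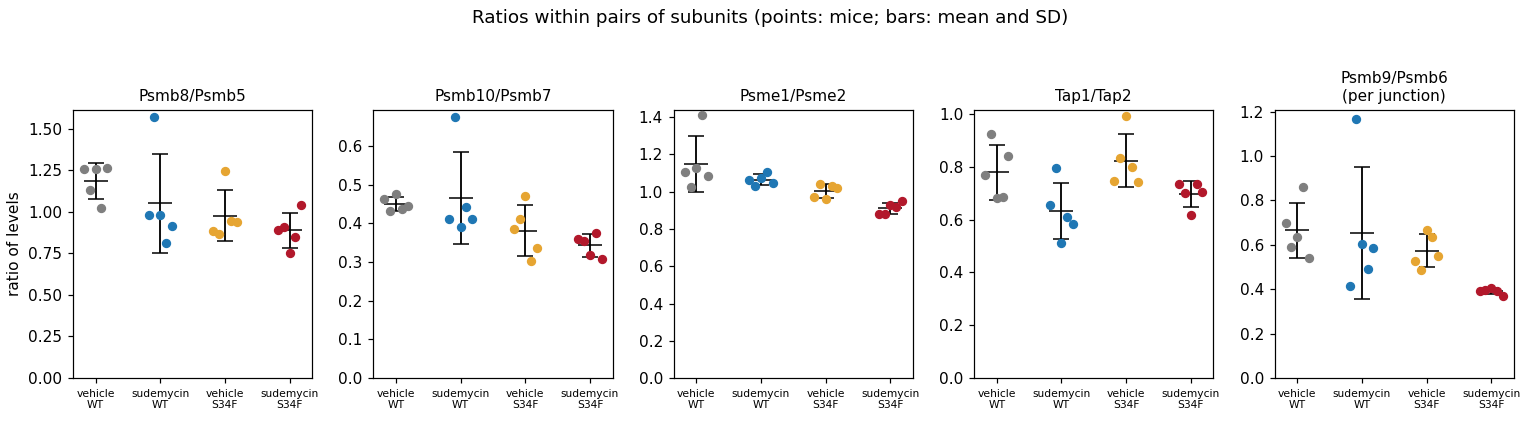
Ratio of the levels of 5 pairs of subunits in every mouse by group, per length of transcript, or per main junction for Psmb9 and Psmb6. Points are mice, and bars give the mean and SD of 5 mice. Psmb9 to Psmb6 is lowest in sudemycin-treated U2AF1(S34F) mice, at 0.39 ± 0.01.

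Across all 20 mice the genes other than B2m moved together, but much less so without the mice that stood apart. The deviations of the 20 mice from their group means correlated across the 36 pairs of the other 9 genes with a median Pearson r of 0.78, from 0.37 for Tap2 and Psmb10 to 0.96 for Psmb8 and Psmb10. For B2m the 9 correlations ran from -0.24 to 0.44. The high values rested largely on the mice that stood apart, since over the other 18 mice the median of the 36 pairs was 0.34, from -0.44 to 0.89. Among those 18 mice r was still 0.89 for Tap2 and Tapbp, 0.85 for Psmb8 and Psmb10 and 0.75 for Psme1 and Psme2. Pairs across these sets could be negative, with -0.44 for Tap2 and Psmb10, -0.35 for Tapbp and Psmb10 and -0.25 for Tap2 and Psmb8. Nlrc5 with the 8 genes other than B2m went from a median r of 0.79 to 0.14. All pairs come from the same libraries, and these values are descriptions.

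**Figure D4:**
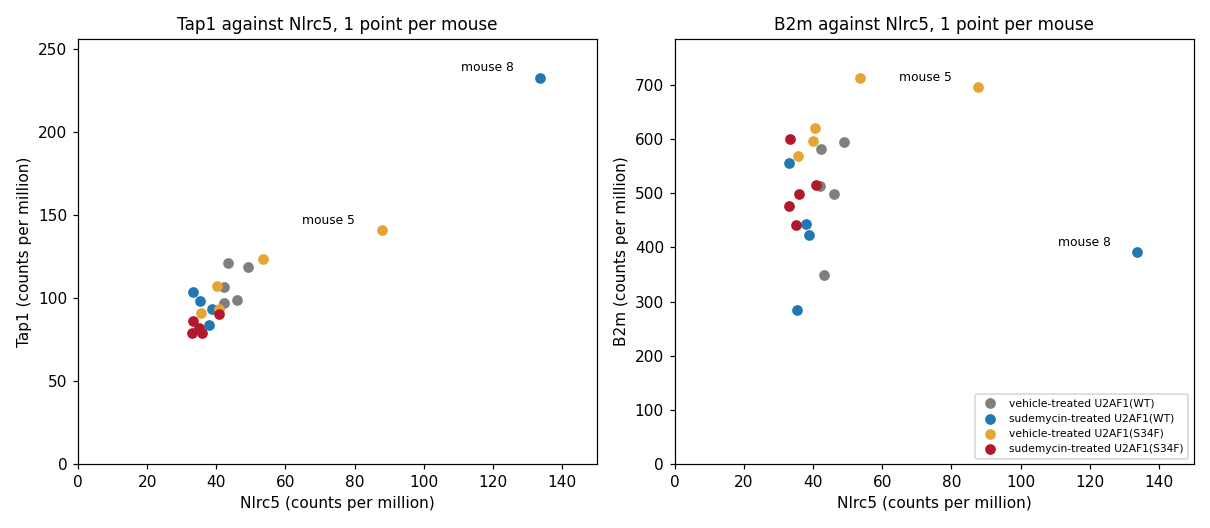
Tap1 and B2m against Nlrc5 in CPM, with a point for each of the 20 mice and colours for the groups. Mouse 8 (sudemycin-treated U2AF1(WT)) lies at 134 CPM of Nlrc5 and 233 CPM of Tap1, but within the range of the other mice for B2m, at 391 CPM.

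The 5 genes whose pattern over the 20 mice was most like the mean of the 10 genes were Igtp (r = 0.96), Irgm2 (0.95), Gbp7 (0.95), Gbp5 (0.94) and Irgm1 (0.93). Over the 18 mice other than the pair that stood apart their r was 0.82, 0.78, 0.72, 0.71 and 0.81. Igtp and Irgm1 also belong to the interferon-induced list.

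The rest of the pathway did not follow one direction. Beside the list counts below stands the share of all genes called. It was 3.07% and 10.8% under the drug in U2AF1(WT) and U2AF1(S34F) mice. Between genotypes it was 39.5% under vehicle and 36.8% under sudemycin D6, and it was 50.2% with mutation and drug together. A list with a called share near these values is not set apart from all genes. The class I heavy chains, whose reads can be split between near-identical copies and are therefore uncertain, were lower in every comparison in which any was called. Under sudemycin D6, 1 of 5 was called lower in U2AF1(WT) mice (2 of 5 without mouse 8) and 4 of 5 in U2AF1(S34F) mice, where H2-Q7 fell by 1.41 ± 0.12, H2-K1 by 0.67 ± 0.07 and H2-D1 by 0.44 ± 0.08 on the log2 scale (edgeR adjusted p = 0.00014, 0.00049 and 0.0108). Between genotypes 4 of 5 were called lower under vehicle (5 of 5 without mouse 5) and 5 of 5 under sudemycin D6, and 5 of 5 were lower with mutation and drug together, with a median of -0.71 against -0.0032 over all genes. H2-K1 then fell by 0.88 ± 0.07 (edgeR adjusted p = 1.1e-06), from 468 to 255 CPM.

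The constitutive catalytic subunits went the other way between genotypes. All 3 were called higher in U2AF1(S34F) mice under vehicle, under sudemycin D6 and with mutation and drug together, and 0 of 3 under the drug in either genotype. With mutation and drug together Psmb5 rose by 0.58 ± 0.11, Psmb6 by 0.48 ± 0.10 and Psmb7 by 0.46 ± 0.09 (edgeR adjusted p = 0.0010, 0.0023 and 0.0019). Of the 8 other activators and assembly factors, 6 were higher in that comparison, among them the assembly factor Pomp (0.51 ± 0.12, edgeR adjusted p = 0.0055) and the activator Psme4 (0.39 ± 0.08, 0.0027). Psmf1, a proteasome inhibitor, was higher under the drug in both genotypes (0.38 and 0.29, edgeR adjusted p = 0.0535 and 0.0139). Psme4 and Psme3 were also higher under the drug in U2AF1(S34F) mice, which made 3 of 8, and 1 of 8 was called in U2AF1(WT) mice, or 0 without mouse 8. Between genotypes 3 were higher and 1 lower under vehicle, or 2 and 0 without mouse 5, and 5 higher and 1 lower under sudemycin D6.

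Of the 9 peptidases that trim class I peptides, 0 were called under the drug in either genotype. With mutation and drug together 5 were higher and 1 lower, where 50.2% of all genes were called. Tpp2 (0.40 ± 0.09, edgeR adjusted p = 0.0032) and Blmh (0.30 ± 0.09, 0.0177) were among the former, and Npepps (-0.31 ± 0.09, 0.0110) was the latter. Between genotypes 2 were higher and 1 lower under vehicle, with Erap1, the trimming aminopeptidase of the endoplasmic reticulum, higher by 0.32 ± 0.07 (edgeR adjusted p = 0.0066), and 4 higher and 1 lower under sudemycin D6 (4 and 0 without mouse 8). Of the 9 chaperones of class I loading, 0 were called under the drug, or 1 higher in U2AF1(S34F) mice without mouse 5. Between genotypes 2 were higher and 1 lower under vehicle (1 and 1 without mouse 5), and 5 were higher under sudemycin D6. With both, 5 chaperones were higher and 1 lower, where 50.2% of all genes were called. Calreticulin (Calr) and calnexin (Canx) were higher by 0.62 ± 0.12 and 0.51 ± 0.11 in U2AF1(S34F) mice under sudemycin D6 (edgeR adjusted p = 0.0033 and 0.0053), in the comparison in which Tap2 and Tapbp were lower.

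Among the 13 transcription factors of class I promoters, Irf1 was the only one called under the drug in U2AF1(S34F) mice, from 112 to 79.6 CPM, by -0.49 ± 0.16 (edgeR adjusted p = 0.0890), and 0 were called in U2AF1(WT) mice. The call of Irf1 rested on vehicle-treated U2AF1(S34F) mouse 5, and without that mouse 0 of the 13 were called. Between genotypes 2 were higher and 5 lower under vehicle (2 and 6 without mouse 5), and 2 higher and 4 lower under sudemycin D6 (1 and 3 without mouse 8). Irf2 was lower in both, by -0.90 ± 0.19 and -0.69 ± 0.10 (edgeR adjusted p = 0.0047 and 0.00055). With both, 2 were higher and 6 lower, where 50.2% of all genes were called. Among the latter was Ciita, the class II transactivator (-1.47 ± 0.18, edgeR adjusted p = 9.3e-05). Of the 11 interferon receptors and signalling genes, 2 were called lower under the drug in U2AF1(S34F) mice, among them Irf9 (-0.55 ± 0.11, edgeR adjusted p = 0.0194), and 0 in U2AF1(WT) mice. Without mouse 5 it was 1 lower and 1 higher in U2AF1(S34F) mice, and without mouse 8 it was 1 lower in U2AF1(WT) mice. Between genotypes 2 were higher under vehicle, among them Jak2, and Tyk2 was lower, and Socs1 was lower under sudemycin D6. With both, 2 were higher and 3 lower, against 50.2% of all genes called.

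The interferon-induced genes from outside the pathway were called lower under the drug in 9 of 13 cases in U2AF1(S34F) mice, with a median of -1.09 against -0.01 over all genes. Irf7 fell by 1.09 ± 0.15 and Usp18 fell by 1.64 ± 0.20 (edgeR adjusted p = 0.0021 and 0.0012). In U2AF1(WT) mice 2 of 13 were called lower, Mx1 (-1.03 ± 0.17, edgeR adjusted p = 0.0078) and Irf7 (-0.84 ± 0.19, 0.0521). Without mouse 8 it was 7 of 13, with a median of -0.70, and without mouse 5 it was 8 of 13 in U2AF1(S34F) mice, with a median of -0.72. Between genotypes 7 of 13 were higher under vehicle, or 4 higher and 1 lower without mouse 5, and under sudemycin D6 1 was higher and 1 lower, or 3 higher and 0 lower without mouse 8. With mutation and drug together 7 were lower and 1 higher, Irf7 by -1.33 ± 0.09 (edgeR adjusted p = 3.0e-07). The interaction called 0 genes of any list.

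Markers of several cell types moved with the same comparisons, and in bulk marrow fewer cells of a type and less RNA per cell cannot be told apart. The marker counts also stand beside the share of all genes called. It was 50.2% with mutation and drug together, 39.5% and 36.8% between genotypes under vehicle and under sudemycin D6, and 10.8% and 3.07% under the drug in U2AF1(S34F) and U2AF1(WT) mice. Several lists lie near or below it. With mutation and drug together 10 of 10 B cell markers were called lower (median log2 difference -1.60), 6 of 8 dendritic cell markers, 4 of 6 megakaryocyte markers with 1 higher, and 7 of 11 T and NK cell markers with 2 higher. In that comparison 5 of 8 stromal and endothelial markers were lower, 3 of 9 erythroid markers were lower, 3 of 5 plasma cell markers were lower with 1 higher, 2 of 9 monocyte markers were lower with 2 higher, and 4 of 10 neutrophil markers were higher. The summed level of the B cell markers ran from 49.3 to 186 CPM in vehicle-treated U2AF1(WT), from 32.4 to 237 CPM in sudemycin-treated U2AF1(WT), from 19.96 to 199 CPM in vehicle-treated U2AF1(S34F) and from 45.1 to 64.7 CPM in sudemycin-treated U2AF1(S34F) mice. That of the neutrophil markers ran from 62040.4 to 70773 CPM in vehicle-treated U2AF1(WT) and from 72171 to 119427 CPM in sudemycin-treated U2AF1(S34F) mice, which did not overlap. Under sudemycin D6 in U2AF1(S34F) mice, where Tap1, Psmb9 and B2m fell, 1 of 10 B cell, 3 of 11 T and NK cell, 3 of 7 dendritic cell and 2 of 6 megakaryocyte markers were lower, as were 2 of 9 erythroid and 1 of 8 stromal and endothelial markers, while 1 of 9 monocyte markers was higher. The dendritic cell sum went from 167 to 308 CPM under vehicle to 151 to 229 CPM. Between genotypes under sudemycin D6, where Tap2 and Tapbp were lower, 7 of 10 B cell markers (median -1.47), 5 of 11 T and NK cell, 4 of 9 erythroid, 2 of 6 megakaryocyte, 2 of 8 stromal and endothelial and 1 of 7 dendritic cell markers were lower. In that comparison 3 of 5 plasma cell markers were lower and 1 higher, 4 of 9 monocyte markers were higher and 2 lower, and 2 of 10 neutrophil markers were higher. Between genotypes under vehicle, where Psme1, Psme2 and B2m were higher, 4 of 10 neutrophil and 1 of 8 dendritic cell markers were higher, 3 of 11 T and NK cell markers were higher and 1 lower, and 3 of 9 monocyte markers were lower and 1 higher. There 2 of 6 megakaryocyte and 2 of 8 stromal and endothelial markers were lower with 1 higher in each list, 1 of 5 plasma cell markers went each way, 1 of 9 erythroid markers was lower and 0 of 10 B cell markers were called. Under the drug in U2AF1(WT) mice 1 of 10 B cell and 1 of 8 dendritic cell markers were lower, and no other marker was called. The most abundant markers of the remaining lists were Cd79b (mean of 21.3 CPM), Xbp1 and Sdc1 (162 and 6.36 CPM), Nkg7 and Ncr1 (45.8 and 9.96 CPM), Irf8 and Itgax (138 and 48.2 CPM), Itga2b and Ppbp (22.4 and 8.61 CPM) and Cxcl12 and Pecam1 (86.9 and 36.9 CPM). The part of cell composition in the changes of the class I genes was not tested.

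Few splicing events of the 10 genes were called. Their reads fell on annotated junctions almost entirely, with at most 3.37% of a gene's junction reads on other junctions in any mouse, reached by Psmb9. Of the cassette exon events of these genes, 0 of 52 were called under the drug in U2AF1(WT) mice, 0 of 56 in U2AF1(S34F) mice, 0 of 51 between genotypes under vehicle, 0 of 56 under sudemycin D6 and 1 of 53 with mutation and drug together, at an FDR below 10% and a change in percent spliced in above 1%. Over all genes 0.844%, 1.26%, 3.34%, 2.98% and 4.67% of events were called in the same order. With unadjusted p below 0.05 there were 5, 10, 5, 12 and 4. The called event was at the Tap1 segment chr17:34329887-34329910 (NCBI build 37, the files' coordinates), which lies inside a longer exon, chr17:34329782-34329910. Its share of inclusion was 1 in all vehicle-treated mice and 0.99 ± 0.02 in sudemycin-treated U2AF1(S34F) mice (edgeR adjusted p = 0.0825). These inclusion reads also count the junction at the segment's end, which the longer exon uses too. Another event, with the same junction into the segment but a different junction out of it, held 23 to 88 reads per mouse. The share is therefore not the inclusion of this segment alone. The call rested on 7 and 9 skipping reads in mice 2 and 6 of the sudemycin-treated U2AF1(S34F) group, the other 3 having 0. Mouse 8 of the sudemycin-treated U2AF1(WT) group had 35 skipping reads against 969 inclusion reads. Mutation and drug together no longer had a called event when any one of the vehicle-treated U2AF1(WT) mice, or mouse 2 or 6, was left out. Under the drug in U2AF1(WT) mice, by contrast, up to 2 events of Tap1 and Nlrc5 were called when any one mouse other than mouse 8 was left out.

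Alternative 3′ splice sites, the events nearest to the function of U2AF1, were called for 0 of 9, 0 of 9, 0 of 9, 0 of 9 and 0 of 10 events of these genes in the same order. Over all genes 0.442%, 0.396%, 2.09%, 2.93% and 3.22% were called, and of the events of these genes 4, 1, 1, 4 and 1 had an unadjusted p below 0.05. The most even use of both acceptors was in Tapbp, at a pair of sites 3 bases apart (chr17:34063572 and chr17:34063575, NCBI build 37). The upstream acceptor took a share of 0.42 ± 0.08 in vehicle-treated U2AF1(WT), 0.48 ± 0.02 in sudemycin-treated U2AF1(WT), 0.48 ± 0.03 in vehicle-treated U2AF1(S34F) and 0.42 ± 0.02 in sudemycin-treated U2AF1(S34F) mice. Under sudemycin D6 the genotypes were apart, at 0.47 to 0.51 and 0.40 to 0.44, with a difference of -0.06 that was not called by edgeR (adjusted p = 0.191) but was by limma on the shares.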

How the data were processed

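The authors aligned paired reads of 126 bases with TopHat2 (version 2.0.8 in the submitters' processing notes) and deposited raw counts per Ensembl gene (GENCODE M1, NCBI build 37) and read counts per splice junction and event, 1 value per mouse. The members and gene lists were chosen with earlier results of these data known. Genes were named by symbol. In each comparison the 10 mice of its groups entered a robust quasi-likelihood fit (R 4.3.3, edgeR 4.0.16) after TMM scaling and the filterByExpr filter, with a prior count of 2, and the interaction was fitted over all 20. Calls were made at a Benjamini-Hochberg FDR below 10%, and the SE was taken from the test statistic. CPM were TMM-scaled over the 20 mice. RPKM divide them by the length of the merged exons. Junction reads were summed per gene over annotated junctions, and this was chosen after seeing the data, as Psmb9 had no gene counts to test. Events with a mean of at least 10 reads were tested with edgeR on inclusion and skipping counts, a test which called more unchanged events than its nominal rate on simulated data. Named genes of a list are its 3 called genes with the lowest p, and the 5 nearest genes those with the highest Pearson r to the mean of the members. There were 8 pathway lists and 9 marker lists. Alternatives were DESeq2 1.42.0, its size factors, other filters, 1 model of all mice, limma 3.58.1 for events, and leaving out each mouse. Of 5 promoter motifs searched, 1 is not reported here.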

Additional observations from a re-analysis of the deposited data

Results flagged for a closer look

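Of 40 sets of 5 values (a gene in a group) 7 held a value far from the other 4 by Dixon's test, where chance flags about 5% of sets. In sudemycin-treated U2AF1(WT) mouse 8, Tap1 was at 232.9 CPM against 83.51 to 103.7 CPM in the other mice of its group. In the same mouse Psmb8 was at 143.3 CPM against 87.43 to 92.54 CPM, and Psmb10 at 53.67 CPM against 29.34 to 31.33 CPM. Psme1 was there at 130.5 CPM against 88.73 to 100.5 CPM, and Nlrc5 at 133.7 CPM against 33.16 to 38.77 CPM. In vehicle-treated U2AF1(S34F) mouse 5, Psmb8 was at 133.8 CPM against 98.69 to 103.7 CPM. In vehicle-treated U2AF1(WT) mouse 2, Psmb10 was at 37.22 CPM against 28.37 to 29.65 CPM.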

How the results depend on the processing

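Of 347 fold changes of single genes under other settings, 320 kept their direction and side of the threshold. Of the rest 11 were no longer called, 9 became called and 7 changed sign, and for none was the cause tested. These totals leave out fits without 1 or both mice, numbers of called genes, splicing events and ratios. Under sudemycin D6 in U2AF1(S34F) mice the 2 called genes became 0 in 1 model of all mice, 4 on junction reads and 1 at an FDR below 5%. With mutation and drug together, 5 called genes became 2 in the model of all mice, and the 1 called cassette event became 0 by limma and 0 with an estimated dispersion. By limma 1 alternative 3′ splice site was called between genotypes under sudemycin D6. On junction reads the sign turned for Psmb10 between genotypes under vehicle (-0.014) and with both (-0.012) and for Psme1 between genotypes under sudemycin D6 (0.037). Without a filter it turned for Psme1 in that comparison (0.015) and for B2m with both (0.010). Without both mice that stood apart the interaction was 0.085 for Psmb8, 0.12 for Psmb10 and 0.069 for Nlrc5.

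Mice with the same number did not deviate together throughout (r from -0.158 to 0.319 over 7 pairs). The labels do not say whether equal numbers mark a pair, and low correlations cannot exclude it. With the mouse number as a replicate block, the genotype effect rests only on numbers found in both genotypes. These were 1, 3 and 5 under vehicle and 6, 9, 10 and 12 under sudemycin D6, so mouse 8 did not enter. With this block 4 genes were called between genotypes under vehicle (Psme1, Psme2, Psmb8 and Psmb10, but not B2m, edgeR adjusted p = 0.161) and 2 under sudemycin D6 (Tap2 and Psme2, but not Tapbp, edgeR adjusted p = 0.113). In the latter block the values of Psmb10 and Psme1 turned to 0.057 and 0.12, and 0 events were called. The drug comparisons share no mouse numbers.

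Leaving out single mice gave these lowest and highest values. Under the drug in U2AF1(WT) mice they were -0.22 and 0.25 for Tap1, -0.036 and 0.20 for Tapbp, -0.042 and 0.19 for Psmb8, -0.19 and 0.21 for Psmb9, -0.022 and 0.26 for Psmb10, -0.029 and 0.13 for Psme1 and -0.31 and 0.44 for Nlrc5. In U2AF1(S34F) mice 0 to 2 genes were called, with -0.093 and 0.029 for Psmb8, -0.11 and 0.083 for Psmb10 and -0.13 and 0.0049 for Psme2. Between genotypes under vehicle they were -0.077 and 0.094 for Tap1, -0.14 and 0.030 for Tap2, -0.030 and 0.18 for Psmb10 and -0.083 and 0.31 for Nlrc5. Under sudemycin D6, 2 to 4 genes were called, with -0.013 and 0.20 for Psmb8, -0.18 and 0.078 for Psmb10 and -0.049 and 0.11 for Psme1. B2m ran from -0.12 to 0.062 with both and from -0.17 to 0.087 in the interaction. Cassette events called ran from 0 to 2 under the drug in U2AF1(WT) mice, from 0 to 1 in each genotype comparison and from 0 to 1 with both, and alternative 3′ sites from 0 to 1 between genotypes under vehicle.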
